A study of Mus musculus with 6 samples.

Results

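The genes described here are 36 effector genes of the type I interferon response, chosen by name. A member was kept where the array's annotation paired a row with its symbol alone. A gene with several rows was read from its brightest one, by the average of all 6 arrays. This found 33 of the 36 among 19938 measured genes. Isg15, Ifi44 and Ifi204 had no row with a single symbol and are not analysed here.

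The cells were CD11b+Gr-1+ cells, called myeloid-derived suppressor cells in the labels, sorted from livers of C57BL/6 mice in which EL4 tumours, a transplantable lymphoma, had been grown. The control group received PBS (3 arrays, labelled untreated), and the other group received type IV concanavalin A, a lectin from jack bean known to stimulate T cells and to cause hepatitis in mice (Con A, 3 arrays). Tumours were thus present in both groups, and the interval from injection to sorting was 3 hours. The Con A dose is written as 12.5 mg/kg among the characteristics and 12.5 ug/kg under treatment. The arrays are called repeats, and nothing ties each to a mouse of its own, so the p-values below reflect variation among these arrays, part of which may be technical. The sorting antigen gene Itgam, which encodes CD11b, stood at 12.92 ± 0.15 after PBS and 12.77 ± 0.04 after Con A (mean ± SD, n = 3, log2), and Ly6g, which encodes part of the Gr-1 epitope, at 13.59 ± 0.09 and 13.51 ± 0.05.

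Type I interferons bind a receptor made of Ifnar1 and Ifnar2, whose kinases Jak1 and Tyk2 pass the signal on. The ISGF3 complex, which holds Stat2 and Irf9, then binds an interferon-stimulated response element in promoters of antiviral genes. Interferon-gamma acts through another receptor, and its signal reaches promoters at a gamma-activated site. Many antiviral genes answer to both interferons, to different degrees. In myeloid cells their products detect viral RNA and DNA, degrade or edit RNA, block translation and hold virions at membranes.

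After Con A, 7 of the 33 measured members rose and 0 fell, by limma at an adjusted p under 0.05 (Benjamini-Hochberg, across the 19938 genes). Of all genes, 4.59% rose and 7.22% fell by this rule. The 7 were Zbp1, Eif2ak2, Daxx, Adar, Samd9l, Ddx58 and Samhd1. At an unadjusted limma p under 0.05, 18 members were higher and 0 lower, against 11% and 13.7% of all genes. The median difference of the members, Con A minus PBS, was 0.47 on the log2 scale, against 0.02 for all genes. The difference was above 0 for 29 of 33 members, against 56.0% of all genes.

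The PBS arrays were not alike in these genes. PBS replicate 3 was the highest PBS array in 27 of 33 members, against 32.6% of all genes. The mean of the members there lay 0.65 above that of PBS replicates 1 and 2, above Con A replicate 1, at 0.37, and below Con A replicates 2 and 3, at 0.82 and 0.87. Con A replicate 1 was in turn the lowest Con A array in 25 members, against 32.0% of all genes. PBS replicate 3 exceeded Con A replicate 1 in 19 members, against 44.6% of all genes. Over all genes that mean was 0.02. Without PBS replicate 3, 16 of 33 members rose and 0 fell, against 5.59% and 8.28% of all genes, and the median difference was 0.60. The 16 held 6 of the 7 named above, all but Samhd1, and 10 others. Each other array left out gave fewer or as many calls. Without PBS replicate 1 (2.3% of all genes rose) or Con A replicate 2 (2.82%), 2 members rose, Eif2ak2 and Samd9l. Without PBS replicate 2 (3.9%) or Con A replicate 3 (2.8%), 3 rose, those and Zbp1. Without Con A replicate 1 (3.34%), 7 rose, with Ifit2 and Xaf1 in place of Adar and Samhd1.

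**Figure D1:**
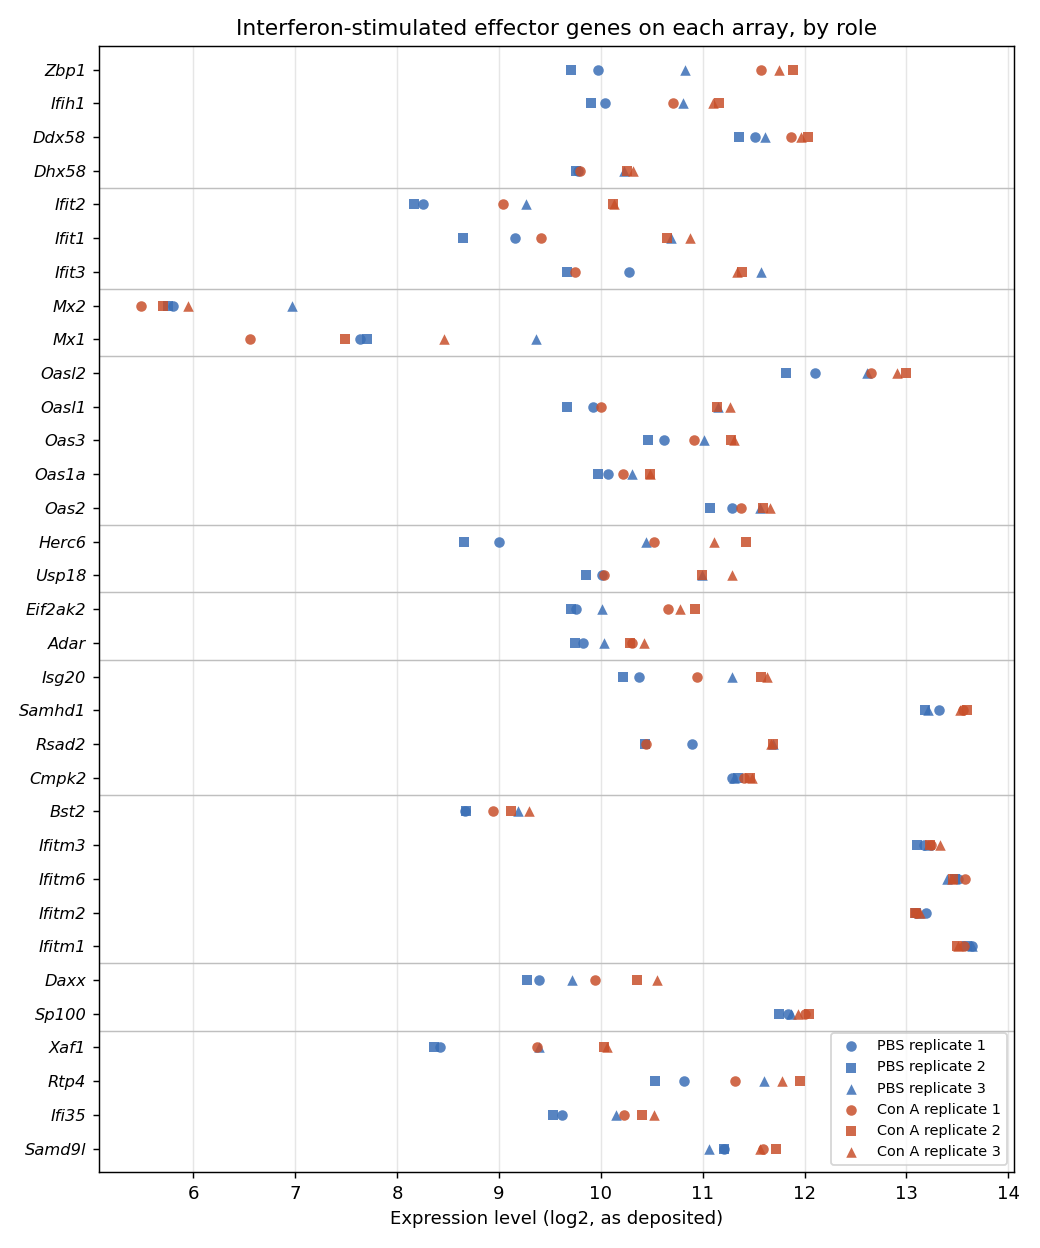
Log2 expression level (x axis, as deposited) of the 33 measured members on each of the 6 arrays, grouped by role with lines between roles; blue symbols are PBS arrays and red symbols Con A arrays. In Ifit1, Ifit3, Usp18, Oasl1 and Rsad2 the blue triangle of PBS replicate 3 lies beside the red symbols of Con A replicates 2 and 3, while in Eif2ak2 and Samd9l all PBS arrays lie below all Con A arrays.

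Promoter sequences from RefSeq (GRCm38.p6) were available for 26 of the 33 members, each covering 250 bases before and 50 after the transcription start. The core of the interferon-stimulated response element, read as GAAA, any 2 bases and GAAA on either strand and called the response element core below, was in the promoters of 11 of these 26 genes (42.3%), against 3.44% of all promoters in the table and 3.99% of all genes. The gamma-activated site, spelled TTCNNNGAA and the same on both strands, was in 10 of 26 (38.5%), against 8.3% of all promoters and 9.55% of genes. Both were found in 4 genes, and 7 of the 26 matches overlapped another match. Of the 6 genes that rose and had a promoter in the table, 2 held the response element core, Ddx58 and Eif2ak2, both after the start. Among the same 6, TTCNNNGAA was before the start in Eif2ak2 and Samhd1 and after it in Adar. A match is a description of letters and not a measured site.

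The stretches below run 5′ to 3′ on the gene's strand from position -180 to -61, counted from the transcription start, with matches in capitals, and each match below is given by its first base. Ifit1 and Ifit3 are shown because PBS replicate 3 was the highest or second highest array in them, Rsad2 and Oas3 as further genes that did not pass, Bst2 because its matches overlap, and Eif2ak2 because it rose. The Ifit1 stretch lies at chr19:34640709-34640828 (+), Ifit3 at chr19:34583349-34583468 (+), Rsad2 at chr12:26456513-26456632 (-), Oas3 at chr5:120777720-120777839 (-), Bst2 at chr8:71537533-71537652 (-) and Eif2ak2 at chr17:78882633-78882752 (-).
Ifit1: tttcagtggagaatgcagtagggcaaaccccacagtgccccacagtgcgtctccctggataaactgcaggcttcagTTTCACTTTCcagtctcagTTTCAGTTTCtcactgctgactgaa
Ifit3: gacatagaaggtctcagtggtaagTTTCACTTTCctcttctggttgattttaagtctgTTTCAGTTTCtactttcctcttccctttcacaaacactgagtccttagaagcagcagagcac
Rsad2: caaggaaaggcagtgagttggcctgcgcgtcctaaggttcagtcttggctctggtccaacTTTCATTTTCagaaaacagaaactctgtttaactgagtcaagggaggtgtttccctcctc
Oas3: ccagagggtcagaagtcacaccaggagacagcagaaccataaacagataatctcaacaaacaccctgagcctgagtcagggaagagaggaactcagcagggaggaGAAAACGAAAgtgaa
Bst2: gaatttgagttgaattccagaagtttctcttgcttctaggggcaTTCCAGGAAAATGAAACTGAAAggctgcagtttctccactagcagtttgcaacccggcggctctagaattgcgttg
Eif2ak2: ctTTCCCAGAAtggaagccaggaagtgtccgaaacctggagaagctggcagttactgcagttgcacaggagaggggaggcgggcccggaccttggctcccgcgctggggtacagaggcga
Ifit1 and Ifit3 hold the same pair of response element cores on the other strand, at -104 and -85 in Ifit1 and at -156 and -122 in Ifit3. Rsad2 has 1 on the other strand at -120, and Oas3 has 1 on the gene strand at -75. In Bst2 a TTCNNNGAA match at -136 runs into response element cores at -130 and -124. In Eif2ak2 the capitals mark a TTCNNNGAA match at -178, and its response element core lies after the start, at 19, outside the stretch.

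Nucleic acid sensors had 4 measured members, of which 2 rose. Zbp1, which binds Z-form nucleic acid and can start necroptosis, stood at 9.97, 9.71 and 10.82 in the PBS arrays and at 11.57, 11.89 and 11.75 after Con A. Every Con A array was above every PBS array, and PBS replicate 3 lay between the other PBS arrays and the Con A arrays. The gene rose by 1.57 (95% interval 0.95 to 2.18), or 2.96-fold, with limma adjusted p = 0.0095. Ddx58, which encodes the RNA sensor RIG-I, stood at 11.51, 11.36 and 11.61 after PBS and at 11.87, 12.04 and 11.97 after Con A. Its groups did not overlap, and it rose by 0.46 ± 0.09 (SE; limma adjusted p = 0.0167). Ifih1, which encodes the long double-stranded RNA sensor MDA5, stood at 10.04, 9.90 and 10.81 after PBS and at 10.71, 11.16 and 11.10 after Con A. PBS replicate 3 overlapped Con A replicate 1, and the difference of 0.74 did not pass (95% interval 0.18 to 1.30, limma adjusted p = 0.101). Without PBS replicate 3 it rose by 1.02 (limma adjusted p = 0.00399). Dhx58, which encodes LGP2, a regulator of these sensors, differed by 0.20 (95% interval -0.21 to 0.62) and passed in neither fit. The lowest value with 1 array left out was 0.108, when that was Con A replicate 3, and the highest was 0.367, when it was Con A replicate 1.

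The kinase and the editor of double-stranded RNA both rose. Eif2ak2 encodes PKR, which halts translation when it binds double-stranded RNA. It stood at 9.76, 9.70 and 10.01 after PBS and at 10.66, 10.92 and 10.78 after Con A. The groups lay apart by more than the spread within either, and the rise was 0.96 ± 0.11 (SE), or 1.95-fold (limma adjusted p = 0.0022). Adar edits adenosine to inosine in double-stranded RNA. Its levels were 9.82, 9.75 and 10.03 against 10.31, 10.29 and 10.43, a rise of 0.48 ± 0.10 (SE; limma adjusted p = 0.0181).

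In the IFIT family, whose proteins bind RNA with foreign 5′ ends and block its translation, 0 of 3 members passed with all arrays, and Ifit2 passed without PBS replicate 3. Ifit1 stood at 9.16, 8.65 and 10.69 after PBS and at 9.41, 10.65 and 10.88 after Con A. PBS replicate 3 was level with Con A replicates 2 and 3, and Con A replicate 1 was near PBS replicate 1. The difference was 0.81 (95% interval -0.50 to 2.13, limma adjusted p = 0.437), and 1.41 without PBS replicate 3 (limma adjusted p = 0.0633). Ifit3 stood at 10.28, 9.67 and 11.57 after PBS and at 9.75, 11.39 and 11.33 after Con A. Here PBS replicate 3 was the highest of all 6 arrays, Con A replicate 1 lay below PBS replicate 1, and the difference was 0.32 (95% interval -1.02 to 1.66). The related gene Ifit3b, whose probes may cross-match with those of Ifit3, had a like pattern, with PBS replicate 3 highest, at 9.04, and Con A replicate 1 lowest, at 6.64. Ifit2 stood at 8.25, 8.17 and 9.26 after PBS and at 9.04, 10.12 and 10.13 after Con A. Its difference was 1.199 (limma adjusted p = 0.09) with all arrays, 1.55 without PBS replicate 3 (0.0165) and passed without Con A replicate 1 as well (0.0347).

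The Mx GTPases, which trap viral ribonucleoproteins, were the members with the largest negative differences, and neither passed. Mx1 stood at 7.63, 7.70 and 9.37 after PBS and at 6.55, 7.49 and 8.46 after Con A. PBS replicate 3 was the highest array and Con A replicate 1 the lowest. The difference was -0.73 (95% interval -2.10 to 0.63), and -0.17 without PBS replicate 3. C57BL/6 mice are known to carry a defective Mx1 gene, as most inbred strains do. Mx2 stood at 5.80, 5.75 and 6.96 against 5.48, 5.70 and 5.94. These levels were below the array medians of 7.05 to 7.08, and no detection calls come with the values.

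The OAS family includes enzymes that make the 2-prime-5-prime linked oligoadenylates that switch on RNase L. Of its 5 measured members 0 passed with all arrays. Oas3 stood at 10.62, 10.46 and 11.01 after PBS and at 10.91, 11.28 and 11.30 after Con A, with PBS replicate 3 above Con A replicate 1. The difference was 0.47 (limma adjusted p = 0.127), and 0.62 without PBS replicate 3 (0.0229). Oasl2, an OAS-like protein with ubiquitin-like domains, stood at 12.10, 11.82 and 12.61 after PBS and at 12.66, 12.99 and 12.91 after Con A. Its groups did not overlap, though PBS replicate 3 and Con A replicate 1 lay close, and the difference was 0.67 (limma adjusted p = 0.0719) with all arrays and 0.89 without PBS replicate 3 (0.00483). Oasl1, which restrains translation of Irf7, stood at 9.93, 9.67 and 11.15 against 9.999, 11.14 and 11.26. That is the order of Ifit1, with PBS replicate 3 among the highest arrays. Oas1a and Oas2 differed by 0.28 and 0.24 and passed in neither fit, and Oas2 moved to 0.118 when PBS replicate 2 was left out and to 0.365 when it was PBS replicate 3. Oas1a has close copies in the genome, which its probes may not separate.

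Of the ISG15 system, in which a ubiquitin-like protein is attached to targets, 2 members were measured. Herc6, the mouse ligase for ISG15, had the largest difference of all members. It stood at 8.995, 8.66 and 10.44 after PBS and at 10.52, 11.43 and 11.11 after Con A. The groups did not overlap, but PBS replicate 3 lay just under Con A replicate 1. The difference of 1.66 (95% interval 0.60 to 2.71) missed the threshold (limma adjusted p = 0.0573), and without PBS replicate 3 it was 2.19, or 4.58-fold (limma adjusted p = 0.00161). Usp18 removes ISG15 and damps signalling at the type I receptor. It stood at 10.01, 9.85 and 10.99 after PBS and at 10.03, 10.996 and 11.29 after Con A, so that Con A replicate 1 was level with PBS replicate 1 and PBS replicate 3 with Con A replicate 2. The difference was 0.49 (95% interval -0.42 to 1.39), and it passed in neither fit. Leaving out Con A replicate 3 lowered it to 0.231, while leaving out Con A replicate 1 or PBS replicate 3 raised it to 0.857 or 0.841.

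**Figure D2:**
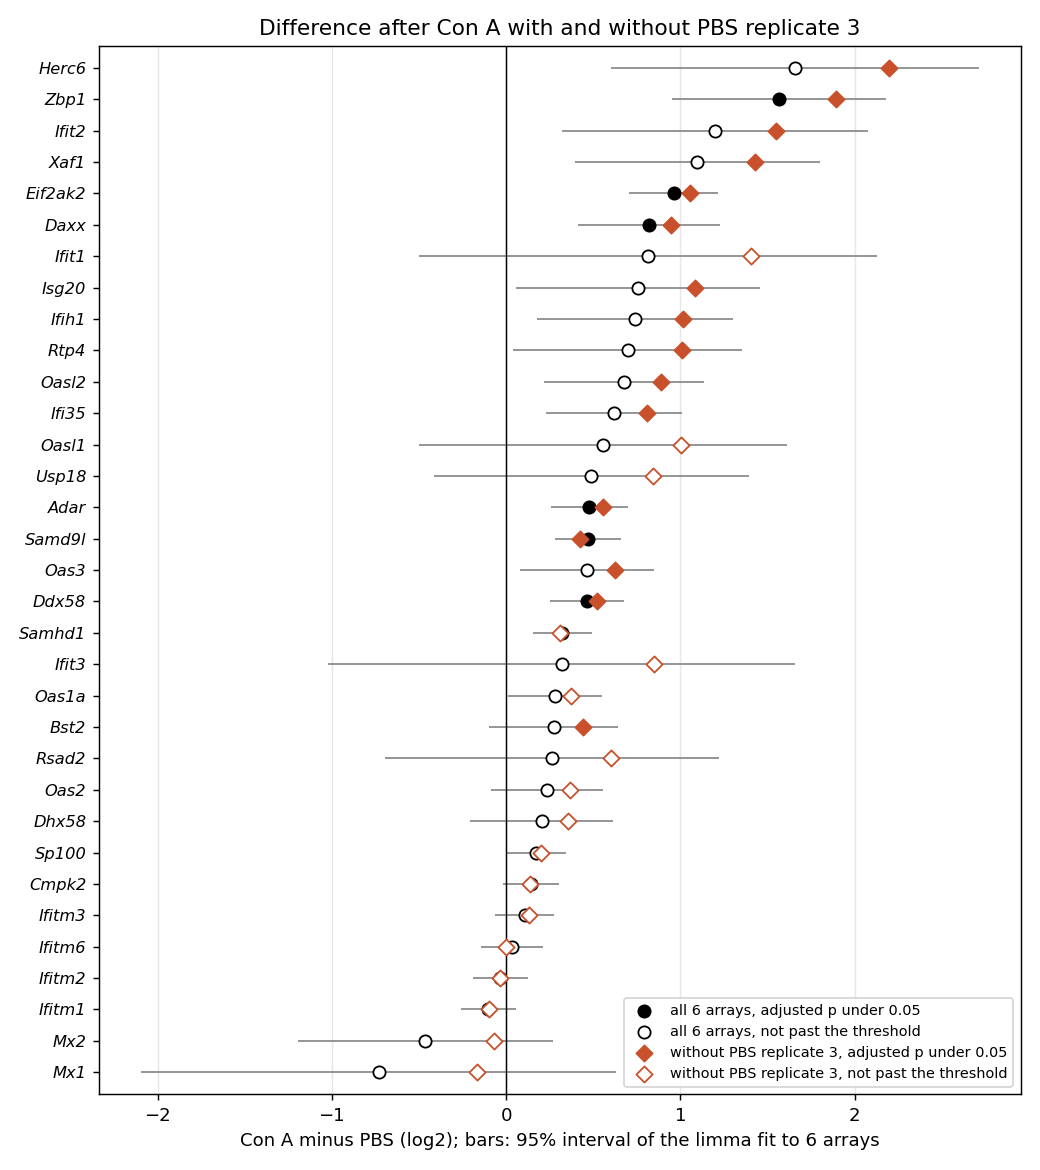
Con A minus PBS on the log2 scale (x axis) for the 33 members, in order of size; circles are the fit to all 6 arrays with its 95% interval, diamonds the fit without PBS replicate 3, and filled symbols have an adjusted p under 0.05. 7 circles and 16 diamonds are filled, and the intervals of Ifit1, Ifit3, Mx1, Oasl1 and Usp18 include 0.

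Among 4 enzymes that act on nucleotides and RNA, Samhd1, which breaks down deoxynucleotides, rose. It stood at 13.32, 13.18 and 13.21 after PBS and at 13.56, 13.60 and 13.53 after Con A, near the top of the array's scale, where the highest value was 14.3. The rise was 0.32 ± 0.07 (SE; limma adjusted p = 0.0282), and the call ended with any 1 of the 6 arrays left out (differences of 0.297 to 0.364, limma adjusted p of 0.0532 to 0.0982). Rsad2, which encodes viperin, the maker of a chain-terminating nucleotide, stood at 10.90, 10.43 and 11.69 after PBS and at 10.44, 11.69 and 11.67 after Con A. PBS replicate 3 was level with Con A replicates 2 and 3, Con A replicate 1 lay beside PBS replicate 2, and the difference was 0.26 (95% interval -0.70 to 1.22). Cmpk2, a mitochondrial nucleotide kinase and the genomic neighbour of Rsad2, did not share this order, with levels of 11.28, 11.34 and 11.30 against 11.40, 11.47 and 11.49. Its difference was 0.14 (95% interval -0.02 to 0.30) and did not pass. Isg20, an RNA exonuclease, stood at 10.38, 10.22 and 11.29 after PBS and at 10.94, 11.57 and 11.63 after Con A. PBS replicate 3 lay above Con A replicate 1. The difference was 0.76 with all arrays (limma adjusted p = 0.171) and 1.08 without PBS replicate 3 (0.0123).

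Membrane restriction factors had 0 of 5 members past the threshold. The IFITM proteins block fusion of viruses with endosomes, and Ifitm1, Ifitm2, Ifitm3 and Ifitm6 had differences of -0.10, -0.03, 0.11 and 0.03. Ifitm3 stood at 13.18, 13.10 and 13.22 after PBS and at 13.24, 13.24 and 13.33 after Con A (95% interval of the difference -0.06 to 0.28). Their levels, like that of Samhd1, were close to the highest value on the arrays, where differences can be compressed, and probes of these similar genes may cross-match. Bst2, or tetherin, which holds budding virions on the cell, stood at 8.67, 8.68 and 9.18 against 8.94, 9.11 and 9.29. PBS replicate 3 was above Con A replicates 1 and 2, and the difference of 0.27 (limma adjusted p = 0.353) became 0.44 without that array (0.0439).

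Of the nuclear body proteins, Daxx rose. This histone chaperone stood at 9.396, 9.27 and 9.72 after PBS and at 9.94, 10.36 and 10.55 after Con A, with no overlap, and rose by 0.82 ± 0.18 (SE; limma adjusted p = 0.0237). Sp100, a core component of the same bodies, had all Con A arrays above all PBS arrays, but a difference of 0.17 (95% interval 0.00 to 0.35) that did not pass. Samd9l, a restriction factor that limits translation, rose by 0.47 ± 0.08 (SE; limma adjusted p = 0.0106), from 11.21, 11.20 and 11.07 to 11.59, 11.72 and 11.57. Among the 7, it alone had PBS replicate 3 as its lowest PBS array. Xaf1, a partner of apoptosis inhibitors, stood at 8.42, 8.36 and 9.39 after PBS and at 9.37, 10.03 and 10.06 after Con A. PBS replicate 3 exceeded Con A replicate 1 by 0.02, and the difference of 1.10 (limma adjusted p = 0.0585) became 1.43 without that array (0.00386). Ifi35 and Rtp4 differed by 0.62 and 0.70, did not pass with all arrays, and rose by 0.81 and 1.01 without PBS replicate 3 (limma adjusted p = 0.00298 and 0.0127).

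All Con A arrays were above all PBS arrays in 13 of 33 members, against 14.4% of all genes, and below them in Ifitm1 alone, against 15.6% of all genes. The 13 were the 7 that rose and Oasl2, Cmpk2, Ifi35, Ifitm3, Herc6 and Sp100. The members differed in how far PBS replicate 3 went towards the Con A level. It lay at least 1 log2 unit above the mean of PBS replicates 1 and 2 in 9 members, namely the 3 IFIT genes, both Mx genes, Oasl1, Rsad2, Usp18 and Herc6, against 1.36% of all genes. In 12 members it was above the Con A mean, against 43.5% of all genes, and in 4 (Ifit3, Mx1, Mx2 and Ifitm1) above every Con A array, against 29.5% of all genes. The distance was 0.28 in Eif2ak2, where the Con A mean lay 1.06 above the same pair, and 0.38 in Daxx, where it lay 0.95 above. In 4 members, Ifit1, Ifit3, Mx1 and Herc6, the PBS arrays spanned more than 1.5 log2 units, against 0.542% of all genes. These groupings of members were seen in the values and were not tested.

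**Figure D3:**
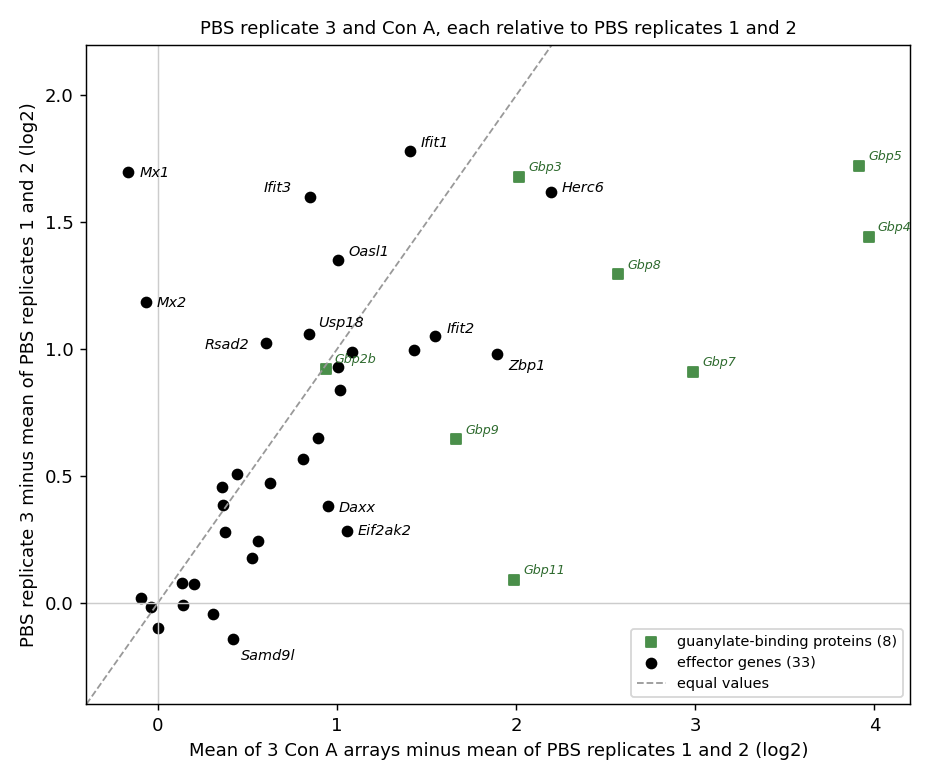
PBS replicate 3 minus the mean of PBS replicates 1 and 2 (y axis, log2) against the mean of the 3 Con A arrays minus the same mean (x axis, log2) for 33 effector genes (black) and 8 guanylate-binding protein genes (green); both axes share those 2 PBS arrays. Mx1, Mx2, Ifit1, Ifit3, Oasl1, Usp18 and Rsad2 lie above the line of equal values, while Eif2ak2, Daxx, Samd9l and Zbp1 lie below it.

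Other genes of the pathway were counted from lists. Of 15 measured genes for type I and type III interferons, 1 rose and 0 fell. The 1 was Ifnl2, a lambda interferon gene, at 8.82 ± 0.12 after PBS and 9.24 ± 0.12 after Con A (n = 3, limma adjusted p = 0.0306, and 0.0571 without PBS replicate 3). Ifnb1, which encodes interferon-beta, stood at 5.70, 5.80 and 5.56 after PBS and at 5.73, 5.97 and 5.74 after Con A, below the array medians throughout. Of 8 genes of the receptor and its factors, 3 rose and 0 fell. Stat2 rose by 1.21 (limma adjusted p = 0.0088), Irf7, which amplifies interferon production, by 0.77 (0.0127) and Irf9 by 0.42 (0.0392). Stat2 stood at 9.97, 10.02 and 10.72 after PBS and at 11.29, 11.47 and 11.60 after Con A. Ifnar1 and Ifnar2 differed by 0.05 and 0.01 and did not pass. Of 12 adaptors and kinases upstream of interferon, 4 rose and 3 fell. The kinase gene Tbk1 rose by 1.08, while Tlr9 fell by 1.35 (limma adjusted p = 0.0425, and 0.0504 without PBS replicate 3), Mavs, the adaptor of RIG-I and MDA5, fell by 1.25 and Tlr7 fell by 0.94. Of 26 relatives of the members, 2 rose and 3 fell, with Sp140 at 0.65, and Eif2ak3, Aim2 and Oas1c at -1.14, -0.68 and -0.51.

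Of 9 genes of the interferon-gamma pathway, 4 rose and 0 fell. Ifng itself stood at 7.37, 7.41 and 7.87 after PBS and at 8.78, 8.44 and 9.30 after Con A, a rise of 1.29 (limma adjusted p = 0.0118), and Socs1, a feedback inhibitor, rose by 3.23 and Irf1 by 1.47. The guanylate-binding proteins, which interferon-gamma induces strongly, rose in 6 of 8 measured cases with a median difference of 2.05. Without PBS replicate 3, 8 of 8 rose, with a median difference of 2.29. Of 4 immunity-related GTPases 3 rose, or 2 without PBS replicate 3, when Irgc1 lost its call (limma adjusted p = 0.0391 and then 0.0732). Of the effector genes 7 of 33 rose, with a median difference of 0.47, or 16 of 33 and 0.60 without PBS replicate 3. No test of the difference between these lists was made. PBS replicate 3 stood 1.09 above PBS replicates 1 and 2 in the mean of the guanylate-binding proteins, against 2.30, 2.70 and 2.51 in the Con A arrays. In these list means the groups did not overlap, unlike in the means of the effector genes. By gene, the groups overlapped in 2 of 8 guanylate-binding proteins and 19 of 33 effector genes, against 13971 of all 19938 genes.

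Markers of monocytic and granulocytic cells and of other cell types were read beside these values. After Con A, 5 of 10 monocytic markers fell and 1 rose (9 and 1 at an unadjusted limma p under 0.05). The 1 was Irf8, by 0.98, which also counts among the 4 interferon-gamma pathway genes above. In 8 of the 10, all Con A arrays lay below all PBS arrays, against 15.6% of all genes. The mean of the 10 ran from 10.8 to 11.1 after PBS and from 9.70 to 10.3 after Con A. It was lowest in Con A replicate 1. Of 12 granulocytic markers 0 rose and 0 fell (2 and 0 at an unadjusted limma p under 0.05), with a median difference of 0.01. Their mean ran from 12.4 to 12.5 after PBS and from 12.5 to 12.7 after Con A. High levels such as that of Lcn2, at 13.91 after PBS, may hide changes through compression. In bulk samples, fewer cells of a type and less RNA per cell cannot be told apart. The mean of 10 dendritic cell markers was 8.22, 8.20 and 8.66 in the PBS arrays and 8.14, 8.33 and 8.80 in the Con A arrays, highest in PBS replicate 3 and Con A replicate 3. Of these, 0 rose and 1 fell by limma (1 and 1 at an unadjusted p under 0.05). PBS replicate 3 was the highest PBS array in 7 of the 10, against 32.6% of all genes. It stood out most in Cd209a (9.20, 9.17 and 11.13 after PBS) and Ccr7 (8.22, 8.25 and 9.78). In Wdfy4, Clec9a and Cd24a it was the lowest PBS array. Of 10 markers of plasmacytoid dendritic cells, a source of type I interferon, 0 rose and 1 fell, Pld4 by 1.41 (1 and 2 at an unadjusted p). Siglech, which defines those cells, lay between 6.47 and 6.59 on all arrays, below the array medians. The mean of 10 markers of T cells and EL4 cells ran from 6.64 to 6.90 after PBS and from 6.78 to 7.03 after Con A. That of 8 NK markers ran from 7.34 to 7.86 and from 6.94 to 8.03. In either list 0 genes passed the threshold (3 and 1 at an unadjusted p). Both means were highest in PBS replicate 3 and Con A replicate 3 of their groups. PBS replicate 3 was the highest PBS array in 6 of the 8 NK markers and 3 of the 10 others. Relative to PBS replicates 1 and 2, its mean was 0.417 for NK, 0.183 for T cell and EL4 and 0.45 for dendritic markers. Il7r, of the T cell list, stood at 6.97, 7.65 and 9.86 after PBS. Hepatocyte and Kupffer cell markers had their highest means in Con A replicate 2. The mean of 9 hepatocyte markers was 7.585 there and 6.822 to 6.918 on the other arrays. That of 12 Kupffer cell markers was 8.953 there and 7.447 to 7.965 on the others. In both lists 0 genes rose, and 1 Kupffer cell marker fell, Nr1h3 by 1.13 (limma adjusted p = 0.015). Of 7 B cell markers 0 rose and 1 fell, Ms4a1 by 0.45 (limma adjusted p = 0.0282), and 3 fell without PBS replicate 3. Their mean in PBS replicate 3 lay at -0.345 relative to PBS replicates 1 and 2, beside the Con A arrays at -0.317, -0.358 and -0.348. The part of these cells in the values of the effector genes was not tested.

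**Figure D4:**
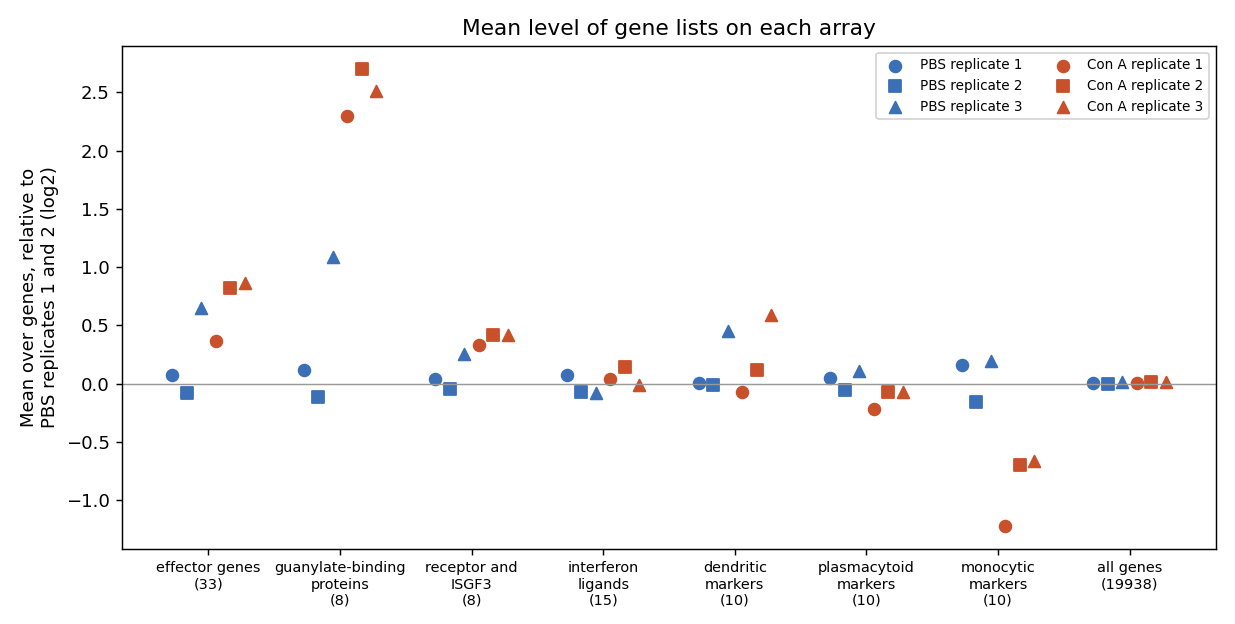
Mean log2 level of each gene list on each array, relative to PBS replicates 1 and 2 (y axis), with the number of genes in brackets; blue symbols are PBS and red symbols Con A arrays. The effector genes of PBS replicate 3 (0.65) lie above Con A replicate 1 (0.37), the guanylate-binding proteins of every Con A array lie above 2.3, and all genes together lie within 0.02 of 0.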

How the data were processed

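Values are on a log2 scale as the authors deposited them, with RMA and Partek (versions not listed) named in the submitters' processing notes. The array is a mouse Affymetrix gene array. RMA equalizes array distributions and can compress differences at both ends of the scale. Of 35556 rows, 21789 had 1 symbol, 1621 several and 12146 none. Entrez numbers led to 0 symbol changes. Con A was compared with PBS (3 arrays each, two-sided) by limma 3.58.1 in R 4.3.3 (lmFit, eBayes), and p-values were adjusted over 19938 genes by Benjamini-Hochberg. The fit was tested on simulated data. Only 3 arrays per group limit precision. Plots used matplotlib 3.10.9.

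The members and lists were chosen with earlier results of these data known, and the grouping by role, the patterns among arrays and the printed promoters after values were seen. Full statistics were given for members past the threshold, those whose PBS arrays spanned over 1.5, and examples of each role that did not pass. Other lists name up to 4 genes past the threshold with the largest differences. Alternatives were other scaling, a filter on low values, the mean of a gene's rows, a trended robust variance, array weights, a replicate block and each array left out.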

Additional observations from a re-analysis of the deposited data

How the results depend on the processing

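With all arrays kept, quantile normalization, median centring, the filter at a mean above 7, the mean of a gene's rows and the trended robust variance gave 7 to 10 members that rose, and the 7 of the report were among them in each. The 10 came from the filter, with which 8.18% of 10984 genes rose, against 4.47% to 4.83% in the other 4 settings. Array weights, lowest for PBS replicate 3 at 0.53, gave 13 that rose, the same 7 and 6 others, against 5.68% of all genes. With the replicate number as a block, 13 members rose (5.09% of all genes) and 1 fell (7.64%), Mx1 by 0.73 (limma adjusted p = 0.034), and Samhd1 lost its call. Deviations of same-numbered arrays correlated at 0.228, -0.17 and 0.555, and those of the other pairs at -0.543 to 0.538. Whether same-numbered arrays share more than a number is not stated in the labels and was not tested. With 1 array left out, 2 to 16 members rose, 0 fell, and the median difference ran from 0.30 to 0.60. Eif2ak2 and Samd9l passed in all 13 alternatives, Zbp1 in 11, Ddx58 and Daxx in 9, Adar in 8 and Samhd1 in 6. The sign turned with 1 array left out for 3 members that never passed. Ifit3 ran from -0.10 (without PBS replicate 2) to 0.855, Rsad2 from -0.024 (without PBS replicate 2) to 0.675 and Ifitm6 from -0.008 (without Con A replicate 1) to 0.058. Of others that did not pass, Ifit1 ran from 0.389 to 1.407, Oasl1 from 0.264 to 1.005, Bst2 from 0.184 to 0.443, Mx1 from -1.212 to -0.165 and Mx2 from -0.672 to -0.068. The cause was not tested. With 3 arrays a group, Ifit1 and Ifit3 have intervals over 2 log2 units wide, so these arrays do not settle their direction.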
